A study of Homo sapiens with 12 samples.

Results

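The leukocyte integrins described here are 10 genes, ITGAM, ITGAX, ITGAL, ITGAE, ITGB2, ITGA4, ITGA5, ITGA6, ITGB1 and ITGB7, out of 46639 gene symbols in the deposited matrix. They were chosen by name, with earlier results of these data known, as integrin subunits that blood cells are known to use. All transcript rows with one of these symbols were added up per symbol. RNA was sequenced from MOLM-13, a human acute myeloid leukemia line with an MLL-AF9 fusion, to ask how decitabine (DAC, a nucleoside that blocks DNA methylation) and all-trans retinoic acid (ATRA, a ligand of the retinoic acid receptors) change transcription alone and together. There were 12 libraries, 3 each of untreated cells, cells given DAC at 100 nM, cells given ATRA at 1 µM, and cells given both drugs at these doses (DAC+ATRA). Per the labels all groups grew in medium with 20% fetal calf serum and GM-CSF at 5 ng/ml, whereas the study methods give less serum and name no GM-CSF. Per the labels the untreated libraries stand for 96 h and the treated ones for 72 h, whereas the design text gives 72 h for the harvest and the study methods give ATRA only with the last DAC dose. Any part that time played cannot be told apart from treatment if the labels hold. None of the libraries was a vehicle control. The 3 libraries of a group are technical triplicates, so each p-value measures the spread within 1 experiment in 1 cell line.

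Integrins are surface receptors made of 1 α and 1 β chain that tie a cell to its neighbours or to the extracellular matrix and signal in both directions across the membrane. The β2 chain (ITGB2, CD18) pairs with αL (ITGAL, CD11a), αM (ITGAM, CD11b) or αX (ITGAX, CD11c), and αM and αX are widely used as surface markers of myeloid maturation. The β7 chain (ITGB7) pairs with αE (ITGAE, CD103) or with α4 (ITGA4, CD49d) and serves homing to the gut and adhesion to epithelium. The β1 chain (ITGB1, CD29) pairs with α4, α5 (ITGA5, CD49e) or α6 (ITGA6, CD49f), which bind VCAM1 and fibronectin, fibronectin, and laminins.

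DNA methylation, which DAC blocks, falls mainly on cytosines that are followed by guanine. The bases before the start of 4 members that the results turn on are therefore shown with each CG in capitals. These are ITGB7 and ITGAM, which rose with each drug, ITGA6, which was at 0 in untreated cells, and ITGA5, which fell with DAC. The sequences are from RefSeq (GRCh38.p14), read 5′ to 3′ on the strand of the gene, and stop before the first base that GENCODE places in the gene. ITGB7 lies at chr12:53207283-53207501 (minus strand), ITGAM at chr16:31259725-31259966 (plus strand), ITGA6 at chr2:172427086-172427335 (plus strand) and ITGA5 at chr12:54419267-54419516 (minus strand).
ITGB7: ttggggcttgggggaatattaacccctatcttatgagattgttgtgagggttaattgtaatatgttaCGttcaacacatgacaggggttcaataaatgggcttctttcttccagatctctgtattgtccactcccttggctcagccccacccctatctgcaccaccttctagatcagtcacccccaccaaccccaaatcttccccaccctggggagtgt
ITGAM: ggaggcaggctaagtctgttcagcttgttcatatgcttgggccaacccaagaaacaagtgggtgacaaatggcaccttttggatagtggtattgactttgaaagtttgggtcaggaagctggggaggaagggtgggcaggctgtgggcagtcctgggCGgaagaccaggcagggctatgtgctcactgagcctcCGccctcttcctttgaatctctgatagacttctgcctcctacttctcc
ITGA6: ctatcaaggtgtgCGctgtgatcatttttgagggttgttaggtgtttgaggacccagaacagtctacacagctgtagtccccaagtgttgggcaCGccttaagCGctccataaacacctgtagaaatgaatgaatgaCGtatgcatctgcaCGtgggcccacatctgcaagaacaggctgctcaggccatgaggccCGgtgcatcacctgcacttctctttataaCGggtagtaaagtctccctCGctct
ITGA5: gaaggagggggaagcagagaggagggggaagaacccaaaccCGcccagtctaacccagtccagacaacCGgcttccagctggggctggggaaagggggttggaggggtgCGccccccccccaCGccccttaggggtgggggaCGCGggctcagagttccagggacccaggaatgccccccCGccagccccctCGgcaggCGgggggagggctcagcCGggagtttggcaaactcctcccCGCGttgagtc

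Promoters of 7 of the 10 members were in the RefSeq table, and those of ITGAX, ITGAL and ITGB2 were not used here. Over the 250 bases before each start, ITGB7 and ITGAM held 2 CG each (the shorter printed stretch of ITGB7 holds 1), against a median of 11 over the 35116 promoters of the table. The count was 6 for ITGAE, 12 for ITGA5, 25 for ITGA4, 8 and 30 for both starts of ITGA6, and 32 and 4 for both starts of ITGB1. A half-site of retinoid receptors, searched on both strands as AGGTCA and as its variants with AGTTCA in its place, with GGGTCA, and with GGTTCA, was found in 4 of the 7 members, and 33.8% of all promoters held at least 1 of these. The 7 members had 9 such stretches of 250 bases between them, whereas the share of all promoters is counted per stretch, so both figures are in unlike units. ITGB7 had GGTTCA with its first base 165 bases before the start and ITGAM had GGGTCA 143 bases before it, while neither ITGA6 nor ITGA5 had any of them. Such matches describe letters and are not binding sites, and methylation was not measured in these libraries.

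The deposited values are reads per transcript divided by a size factor of the library, here called normalised counts, and every value came back as a whole number of reads. Recovered reads per library ran from 8.95 to 11.9 M (M, mega) in untreated cells, 4.67 to 6.95 M with DAC, 8.36 to 10.7 M with ATRA and 5.61 to 7.16 M with DAC+ATRA, so low genes were measured less precisely in the DAC groups. Reads were counted per transcript, and how reads in bases shared by several listed transcripts were assigned is not given in the sources used here, so levels cannot be compared between genes. Rows with no base of their own differed: that of the reference transcript of ITGAM was at 0, while ENST00000302278.8 held 96.4% of the ITGB1 counts in untreated cells. ITGAE and ITGA5 have 1 listed transcript each and all of their exonic bases to themselves, whereas for ITGAM 26 of 4745 exonic bases belong to only 1 listed transcript, for ITGA6 0.885% of them and for ITGB7 2.71%. Where transcripts of a gene share most bases, a change in level and a change in transcript use cannot be told apart. Of 8 myeloid markers, 7 reached 10 reads in some library and CD68 was listed at 0, while T cell, B cell, NK cell, erythroid and megakaryocyte markers reached 10 reads for 1 gene of each list and epithelial ones for 0 of 4. Summed over the list, T cell markers ran from 4.18 to 40.8 normalised counts and B cell markers from 2.51 to 39.8, the latter mostly CD79A, which rose with each treatment. The B cell sum was 5.68 at most in untreated cells. CD79A thus passed the filter of 10 normalised counts only through treated libraries, and its calls were bound up with that filter. The sums were 1.49 to 14.2 for NK cell, 0 to 15.4 for erythroid, 0 to 23.3 for megakaryocyte and 0 to 5.09 for epithelial markers, and CD2, CD8A, MS4A1, PAX5, KLRD1, PF4, PPBP, GP1BA, KRT19 and KRT5 were at 0 in all libraries. Myeloid markers summed to 37261 to 48932 in untreated cells, 160130 to 202243 with DAC, 7838 to 12234 with ATRA and 52100 to 54537 with DAC+ATRA: MPO and LYZ, granule enzymes of myeloid cells, rose with DAC (log2 fold changes 3.83 and 1.88) and fell with ATRA (-0.95 and -2.65), and with DAC+ATRA MPO (2.78) and CD33 (0.88) rose. Of the 7 myeloid markers tested, limma called 0 higher and 2 lower with ATRA, beside 26.0% of all genes called. DESeq2 and edgeR called 4 each there. With DAC+ATRA limma called 2 of the 7 higher and 0 lower, near the 28.9% of all genes called. Their median log2 fold change with ATRA was 0.02, and 5 had an unadjusted p under 0.05, so the fall of the sum does not describe the whole list. KLF1, of the erythroid list, was at 0 in all ATRA libraries and at 2.33 to 7.31 in untreated ones, and GP9, of the megakaryocyte list, was at 0 to 4.48 and 10.04 to 23.3. The part of these moves in the integrin values was not tested. In such bulk RNA, fewer cells with a transcript and less of it per cell cannot be told apart.

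The 10 members did not move as a block. ATRA raised ITGB7, ITGAM, ITGAX and ITGB2 and brought up ITGA6, DAC raised ITGB7 and ITGAM while lowering ITGA5 and ITGAL, and ITGB1 passed no test in any comparison. With DAC against untreated, limma called 4 of the 10 members at an adjusted p under 0.01 (2 higher, 2 lower), where 7.97% of the 10642 genes tested were called (4.29% higher, 3.67% lower). With ATRA it called 5 members, each higher, against 26.0% of all genes (12.1% higher, 14.0% lower), and with DAC+ATRA it called 8 (7 higher, 1 lower) against 28.9% (14.5% higher, 14.4% lower). The median log2 fold change of the members was 0.25 with DAC, 0.61 with ATRA and 0.82 with DAC+ATRA, whereas that of all genes was 0.00, -0.04 and 0.00. The libraries of both groups did not overlap for 6 members with DAC, 7 with ATRA and 9 with DAC+ATRA, while 30.4%, 50.7% and 55.8% of all genes were free of overlap. ITGA6 passed the filter of 10 normalised counts in 3 libraries only through the groups given ATRA, where it is high, so its call was bound up with the filter. The treatments share the untreated libraries, so their calls are not independent of each other. The members were chosen with earlier results of these data known, so the shares set beside all genes are no test of the set.

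**Figure D1:**
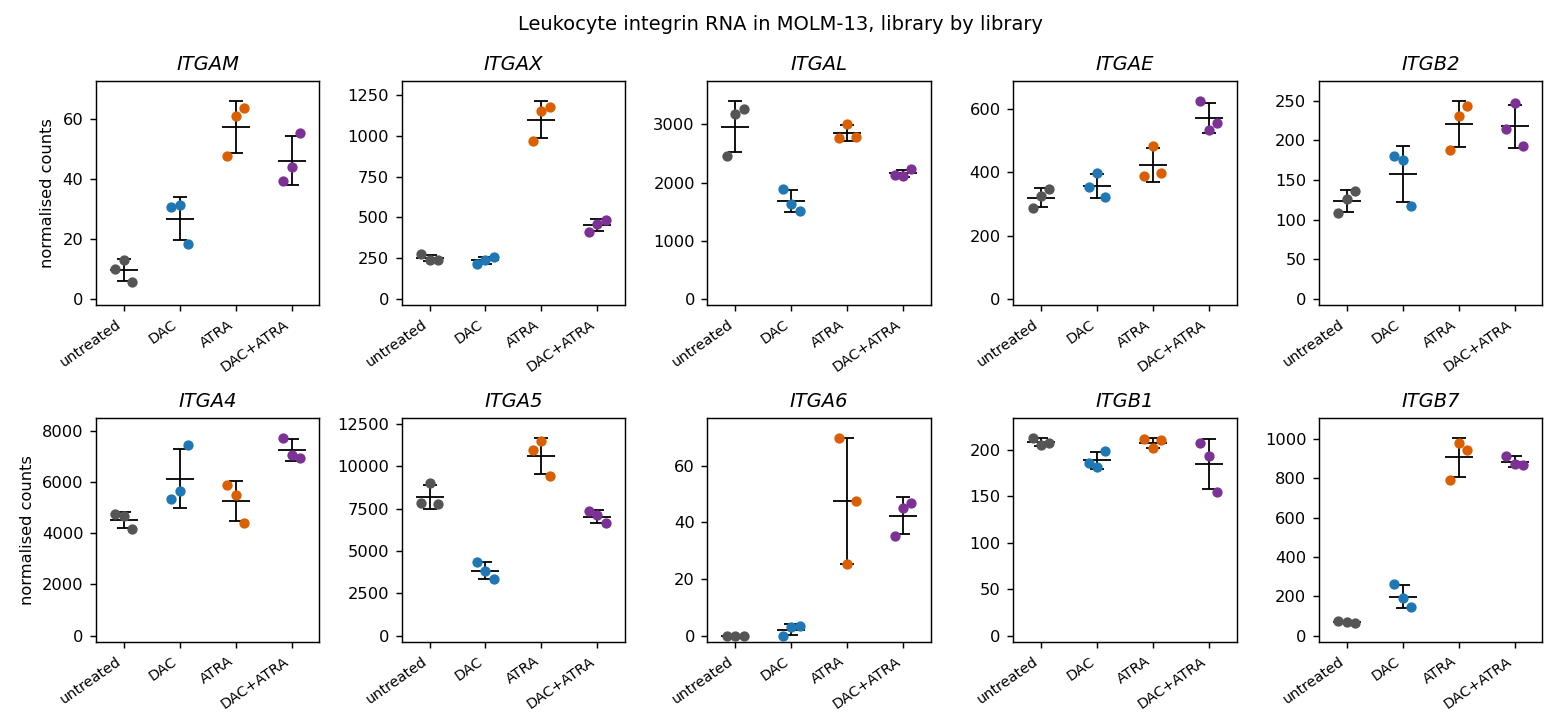
Normalised counts (y axis, linear from 0, a scale of its own for each gene) of the 10 integrin genes in the 12 libraries by group (x axis). Points are libraries and bars the mean with 1 SD (n = 3). ITGB7, ITGAX and ITGA6 were highest in groups given ATRA, ITGA5 and ITGAL were lowest with DAC alone, and ITGB1 stayed between 155 and 213 in all libraries.

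ITGB2, the β chain common to the leukocyte-only receptors, lies at chr21:44885953-44931989 on the minus strand. Its normalised counts were 108, 126 and 137 in untreated cells, 181, 176 and 118 with DAC, 187, 231 and 243 with ATRA and 214, 247 and 193 with DAC+ATRA. All libraries given ATRA, alone or with DAC, lay above all untreated ones, while DAC alone overlapped with untreated. ITGB2 rose 1.78-fold with ATRA (log2 fold change 0.83 ± 0.18, adjusted p = 0.00118) and 1.76-fold with DAC+ATRA (log2 fold change 0.81 ± 0.18, adjusted p = 0.00131), and DAC alone missed the threshold (log2 fold change 0.33 ± 0.18, adjusted p = 0.239). The ATRA call was lost when any of its 3 tested transcript rows was taken alone (adjusted p = 0.0159 for the strongest, ENST00000397850.6), and the DAC+ATRA call was lost without DAC+ATRA replicate 2 (adjusted p = 0.0114) and in the other 2 rows, but not in that row (0.0069). The antisense gene ITGB2-AS1 overlaps ITGB2 on the other strand and read 102 ± 9.18 in untreated cells, 143 ± 17.8 with DAC, 446 ± 31.4 with ATRA and 277 ± 37.2 with DAC+ATRA (mean ± SD, n = 3). The libraries are strand-specific, but the strand setting of the counting is not given in the sources used here, and the part of these reads in ITGB2 was not tested.

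ITGAM, the α chain of the complement receptor that phagocytes use for opsonised particles, lies at chr16:31259967-31332892 on the plus strand. It rests on few reads, with 9 to 16 reads per library in untreated cells and 53 to 82 with ATRA. In normalised counts it read 10.1, 13 and 5.65 in untreated cells, 30.5, 31.4 and 18.5 with DAC, 47.5, 61 and 63.5 with ATRA and 39.2, 43.9 and 55.1 with DAC+ATRA. Untreated libraries were lowest, DAC libraries lay between them and every library given ATRA, and the ATRA and DAC+ATRA libraries overlapped. The rise was 2.80-fold with DAC (log2 fold change 1.42 ± 0.32, adjusted p = 0.00436), 5.99-fold with ATRA (log2 fold change 2.52 ± 0.32, adjusted p = 3.42e-06) and 4.81-fold with DAC+ATRA (log2 fold change 2.21 ± 0.32, adjusted p = 1.73e-05). The DAC call was lost in 6 alternatives. Leaving out single libraries, the adjusted p was 0.0114 without untreated replicate 1, 0.0301 without untreated replicate 3, 0.0209 without DAC replicate 1 and 0.023 without DAC replicate 2, with log2 fold changes of 1.12 to 1.49. With all libraries of both groups kept, it was 0.053 when only the compared groups were fitted and 0.0118 with no filter on low values, with the log2 fold change at 1.42 in both. The calls with ATRA and DAC+ATRA held in every alternative that gave a value. All ITGAM reads came from the row of ENST00000648685.1, and the row of the reference transcript (MANE) ENST00000544665.9, which has no base of its own, was at 0 in every library.

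ITGAX starts 22241 bases past the end of ITGAM on the same strand (chr16:31355134-31382999) and encodes the α chain of another complement receptor, typical of monocytes, macrophages and dendritic cells. Its normalised counts were 275, 240.3 and 238 in untreated cells, 215, 239.9 and 255 with DAC, 967, 1153 and 1176 with ATRA and 413, 462 and 484 with DAC+ATRA. The ATRA libraries were the highest by far, DAC+ATRA libraries fell between them and untreated with no overlap on either side, and DAC libraries overlapped untreated ones. ATRA raised ITGAX 4.38-fold (log2 fold change 2.12 ± 0.13, adjusted p = 8.19e-11) and DAC+ATRA 1.81-fold (log2 fold change 0.85 ± 0.13, adjusted p = 2.21e-05). For DAC alone the log2 fold change was -0.08, with a 95% interval from -0.35 to 0.18. The transcript rows ENST00000268296.9 and ENST00000562918.5 held about even parts of the counts, 49.6% and 50.4% in untreated cells and 54.2% and 45.8% with ATRA, and both rose with ATRA (log2 fold changes 2.26 and 1.98).

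ITGAL, the α chain of the receptor for ICAM1 that lymphocytes and other leukocytes use to hold on to partner cells, lies at chr16:30472658-30523567 on the plus strand. The ITGAL counts, normalised, were 2457, 3176 and 3257 in untreated cells, 1893, 1640.3 and 1522 with DAC, 2761, 3001 and 2786 with ATRA and 2129, 2117 and 2231 with DAC+ATRA. The groups without DAC overlapped, the DAC libraries were lowest, and the DAC+ATRA libraries lay between. ITGAL fell with DAC (log2 fold change -0.81 ± 0.11, adjusted p = 6.30e-05) and with DAC+ATRA (log2 fold change -0.45 ± 0.11, adjusted p = 0.00418), and its log2 fold change with ATRA was -0.05, with a 95% interval from -0.29 to 0.19. The fall with DAC+ATRA missed the threshold without untreated replicate 2 (adjusted p = 0.0307) or 3 (0.0283) and without DAC+ATRA replicate 1 (0.0166), 2 (0.0197) or 3 (0.0117). The fall with DAC held without any single library and was not called in the minor row ENST00000358164.9 alone (log2 fold change -0.64, adjusted p = 0.0212).

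**Figure D2:**
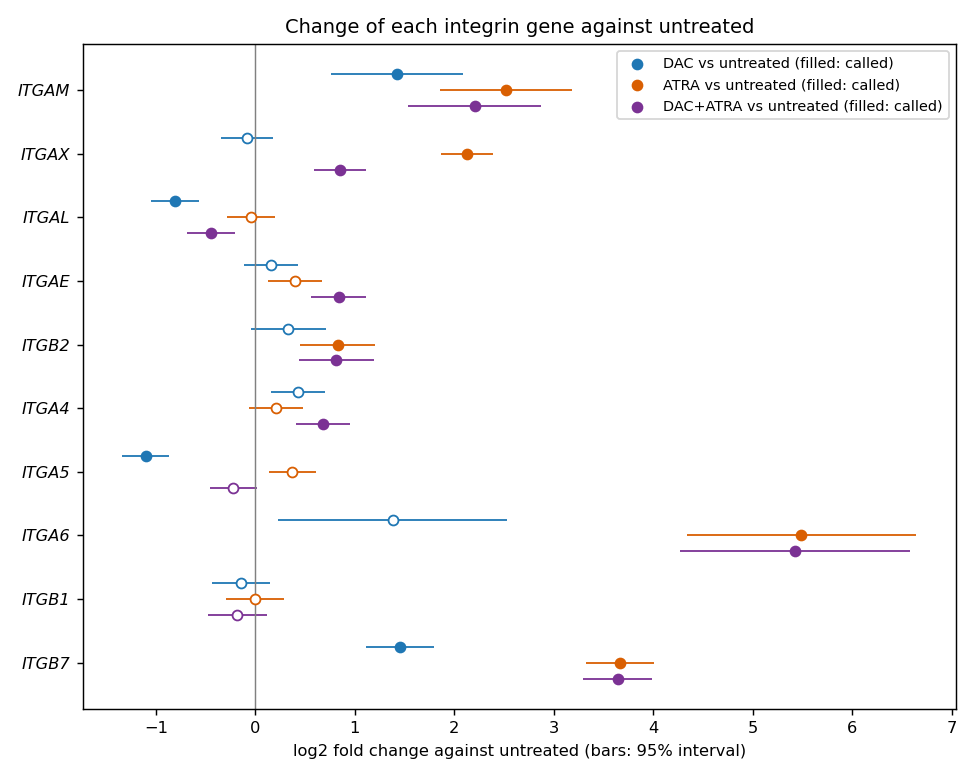
Log2 fold change (x axis) of each integrin gene against untreated with DAC, ATRA and DAC+ATRA, as fitted by limma over 12 libraries. Bars are 95% intervals and filled points are called at an adjusted p under 0.01. ITGB7 and ITGA6 reached 3.67 and 5.49 with ATRA, ITGA5 and ITGAL lay at -1.10 and -0.81 with DAC, and all bars of ITGB1 crossed 0.

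ITGB7, the β chain of the gut-homing receptors, lies at chr12:53191323-53207282 on the minus strand. Its normalised counts were 73.9, 70.6 and 65.9 in untreated cells, 261, 189.8 and 147 with DAC, 791, 982 and 946 with ATRA and 915, 871 and 870.0 with DAC+ATRA. Untreated, DAC and ATRA-treated libraries formed a ladder with no overlap, and the ranges of ATRA and DAC+ATRA overlapped. ITGB7 rose 2.84-fold with DAC (log2 fold change 1.45 ± 0.16, adjusted p = 5.07e-06), 12.9-fold with ATRA (log2 fold change 3.67 ± 0.16, adjusted p = 1.32e-12) and 12.6-fold with DAC+ATRA (log2 fold change 3.64 ± 0.16, adjusted p = 1.81e-12). The minor row ENST00000422257.7 held 11.5% of ITGB7 counts in untreated cells, 10.8% with DAC, 18.3% with ATRA and 15.5% with DAC+ATRA. On its own that row was called with ATRA (log2 fold change 4.47) and missed the threshold with DAC (1.56, adjusted p = 0.0122), while the main row ENST00000267082.10 was called with both. ZNF740, on the other strand over ITGB7, read 1191 ± 74.3 in untreated cells and 949 ± 50.8 with ATRA, so it moved in the other direction.

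ITGAE, the α chain that joins β7 and binds E-cadherin, lies at chr17:3714628-3801188 on the minus strand and has a single listed transcript. Normalised, its counts came to 286, 326 and 348 in untreated cells, 355, 397 and 321 with DAC, 389.7, 484 and 396 with ATRA and 626, 534 and 556 with DAC+ATRA. The DAC+ATRA libraries were the highest, above every other library, and DAC overlapped both untreated and ATRA. ITGAE rose 1.79-fold with DAC+ATRA (log2 fold change 0.84 ± 0.13, adjusted p = 4.42e-05), and neither ATRA (log2 fold change 0.40 ± 0.13, adjusted p = 0.0221) nor DAC (log2 fold change 0.16 ± 0.13, adjusted p = 0.466) passed. DESeq2 did call the difference with ATRA (adjusted p = 0.00619), as did limma without DAC replicate 3 (0.0098). HASPIN lies within ITGAE on the other strand and read 351 ± 44.9 in untreated cells and 377 ± 6.79 with DAC+ATRA.

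ITGA4, the α chain shared by β1 and β7 and the receptor chain by which hematopoietic cells hold on to VCAM1 in bone marrow, lies at chr2:181457202-181538940 on the plus strand. For ITGA4 the normalised counts were 4729, 4660.0 and 4155 in untreated cells, 5323, 5629.8 and 7430.1 with DAC, 5879, 5504 and 4391 with ATRA and 7726, 7052 and 6936 with DAC+ATRA. DAC and DAC+ATRA libraries all lay above untreated ones, and DAC replicate 3 stood above the other DAC libraries. The rise was called with DAC+ATRA (1.60-fold, log2 fold change 0.68 ± 0.13, adjusted p = 3.02e-04) and not with DAC (log2 fold change 0.43 ± 0.13, adjusted p = 0.0294) or ATRA (log2 fold change 0.21 ± 0.13, adjusted p = 0.219). So of the β7 receptor chains, ITGB7 was called with all 3 treatments and both α partners with DAC+ATRA.

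ITGB1, the most widely expressed β chain, lies at chr10:32887273-33005792 on the minus strand. The normalised counts of ITGB1 were 213, 205 and 207 in untreated cells, 186, 182 and 199 with DAC, 211, 202 and 211 with ATRA and 207, 194 and 155 with DAC+ATRA. DAC libraries lay below untreated ones by a small margin, and the other groups overlapped. The 95% intervals of the log2 fold change were -0.43 to 0.15 with DAC, -0.30 to 0.29 with ATRA and -0.47 to 0.11 with DAC+ATRA, so changes beyond these bounds were not seen at this depth (116 to 183 reads per DAC library). Most of its counts were in the row ENST00000302278.8, 96.4% in untreated cells and 93.1% with DAC.

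ITGA5, the α chain of the main fibronectin receptor, lies at chr12:54395261-54419266 on the minus strand and was deeply covered, with 10069 to 12385 reads per untreated library. Its normalised counts were 7830.4, 9036 and 7769 in untreated cells, 4341, 3839 and 3342 with DAC, 10977, 11483 and 9406 with ATRA and 7355, 7121 and 6650.2 with DAC+ATRA. No group overlapped another: ATRA was highest, then untreated, then DAC+ATRA, then DAC. The order of the middle groups was not a call, since DAC+ATRA against untreated missed the threshold (log2 fold change -0.22 ± 0.11, adjusted p = 0.133). ITGA5 fell with DAC to 0.47 of the untreated mean (log2 fold change -1.10 ± 0.11, adjusted p = 1.67e-06), and this call held in every alternative that gave a value. ATRA alone missed the threshold (log2 fold change 0.37 ± 0.11, adjusted p = 0.0147) and passed it with DESeq2 (adjusted p = 0.00198), with edgeR (0.00426), under TMM scaling in limma (0.00541) and without ATRA replicate 3 (0.00716) or without DAC replicate 1 (0.00963) or 3 (0.0036).

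ITGA6, the α chain of laminin receptors, lies at chr2:172427354-172506459 on the plus strand. It was listed at 0 in all 3 untreated libraries. Its normalised counts were 0, 3.14 and 3.27 with DAC, 69.9, 25.3 and 47.7 with ATRA and 35, 45 and 47 with DAC+ATRA. Every library given ATRA lay above every library without it, the ATRA libraries spread widely, and DAC libraries held 3 reads at most. Against a floor of 3 reads per untreated library, ITGA6 was at least 21.5-fold higher with ATRA and at least 19.1-fold higher with DAC+ATRA. The limma test called both rises (adjusted p = 1.73e-07 for ATRA, 2.17e-07 for the combination). Both calls were bound up with the filter, which ITGA6 passed only through the groups given ATRA. For DAC, at or under the floor, no fold is given, and the test missed the threshold (adjusted p = 0.101) except without DAC replicate 1 (0.00762). Most reads fell on ENST00000409080.6 (82.0% of the ITGA6 counts with ATRA), whose start lies 3′ of the stretch printed above. The 250 bases directly before that start held 30 CG, against 8 in the printed stretch. ITGA6-AS1, on the other strand, read 17.1 ± 6.48 in untreated cells and 20.4 ± 3.21 with ATRA.

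Adding ATRA to DAC raised 5 members and adding DAC to ATRA lowered 2. Between DAC+ATRA and DAC, limma called ITGB7, ITGA6, ITGA5, ITGAX and ITGAE higher, 5 of 10 members against 18.8% of all genes (9.04% higher, 9.74% lower). ITGA6 held 3 reads at most per DAC library and passed the filter only through the groups given ATRA, so its call here was also bound up with the filter. ITGB7 was 4.45-fold above DAC (log2 fold change 2.19 ± 0.16, adjusted p = 4.23e-09), ITGAX 1.91-fold (log2 fold change 0.93 ± 0.13, adjusted p = 1.07e-05), ITGA5 1.83-fold (log2 fold change 0.88 ± 0.11, adjusted p = 6.36e-06) and ITGAE 1.60-fold (log2 fold change 0.68 ± 0.13, adjusted p = 5.91e-04). ITGA5 with both drugs thus lay above DAC alone and below ATRA alone. ITGAM, ITGB2 and ITGAL were also higher than with DAC but missed the threshold. Their log2 fold changes were 0.78, 0.48 and 0.36 (limma adjusted p = 0.0731, 0.0529 and 0.0222). ITGAL passed without DAC replicate 1 (0.00832). Between DAC+ATRA and ATRA, 2 members were called, both lower, against 11.9% of all genes (6.47% higher, 5.46% lower): ITGAX, at 0.41 of its ATRA mean (log2 fold change -1.27 ± 0.13, adjusted p = 5.98e-07), and ITGA5, at 0.66 (log2 fold change -0.59 ± 0.11, adjusted p = 9.10e-04). ITGB7 and ITGA6 with DAC+ATRA differed from ATRA by log2 values of -0.03 and -0.06, with 95% intervals from -0.37 to 0.32 and from -1.22 to 1.09. ITGAL, ITGAE and ITGA4 missed the threshold between DAC+ATRA and ATRA (adjusted p = 0.0173, 0.023 and 0.0132). Without DAC replicate 3, which enters only the shared estimate of spread here, these 3 passed as well and the count was 5. ITGAL also passed with DESeq2 (0.00343), edgeR (0.00905), only the compared groups (0.00364) and without untreated replicate 1 (0.00937), and ITGA4 with total-count scaling (0.00761), only the compared groups (0.00885) and without ATRA replicate 1 (0.00806).

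The interaction, the DAC effect in the presence of ATRA minus the DAC effect in its absence, was called for 2 of 10 members, both negative, against 1.6% of all genes (0.724% higher, 0.874% lower). For ITGAX, DAC gave a log2 fold change of -0.08 without ATRA and -1.27 with it, a difference of -1.19 ± 0.18 (SE, adjusted p = 4.51e-04). For ITGB7, DAC gave 1.45 without ATRA and -0.03 with it, a difference of -1.48 ± 0.23 (adjusted p = 6.72e-04). Both genes ended with DAC+ATRA below the sum of the single log2 changes, ITGAX through a lower level than with ATRA alone and ITGB7 at the level of ATRA alone. Taken by single rows, the difference was called for ENST00000268296.9 of ITGAX (-1.31, adjusted p = 9.45e-04) and missed for ENST00000562918.5 (-1.07, 0.015), and it was called for ENST00000267082.10 of ITGB7 (-1.44, 0.00177) and missed for ENST00000422257.7 (-1.83, 0.103). ITGAM had the most negative estimate, -1.74 ± 0.45 (SE), and missed the threshold in limma (adjusted p = 0.0361) and passed it with DESeq2 (0.00687) or without DAC replicate 3 (0.00984). In the other direction, ITGA5 had 0.51 (95% interval 0.18 to 0.85, limma adjusted p = 0.0926) and ITGAL 0.41 (0.07 to 0.75, 0.216). Both of these positive estimates missed the threshold. For ITGA4 and ITGB1 the differences were 0.04 and -0.03, with 95% intervals from -0.34 to 0.42 and from -0.45 to 0.38. The median over the members was -0.19, and over all genes it was 0.03.

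**Figure D3:**
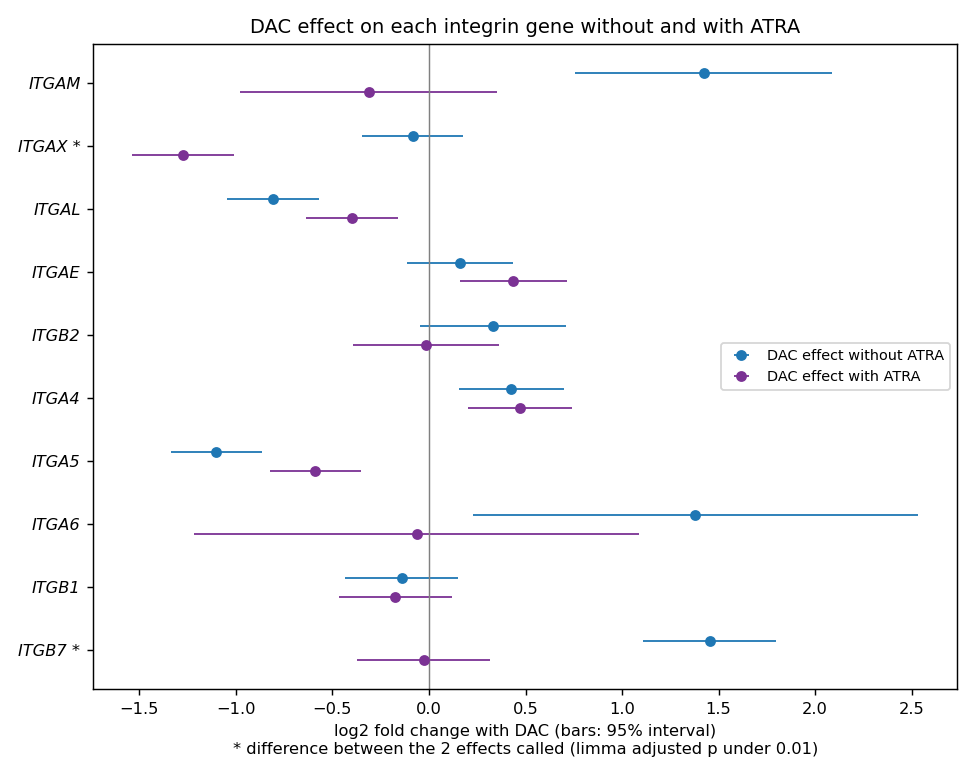
Log2 fold change brought by DAC (x axis) for each integrin gene without ATRA (DAC against untreated) and with ATRA (DAC+ATRA against ATRA), with 95% intervals. Asterisks mark ITGAX and ITGB7, where the difference between both effects was called (-1.19 and -1.48).

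**Figure D4:**
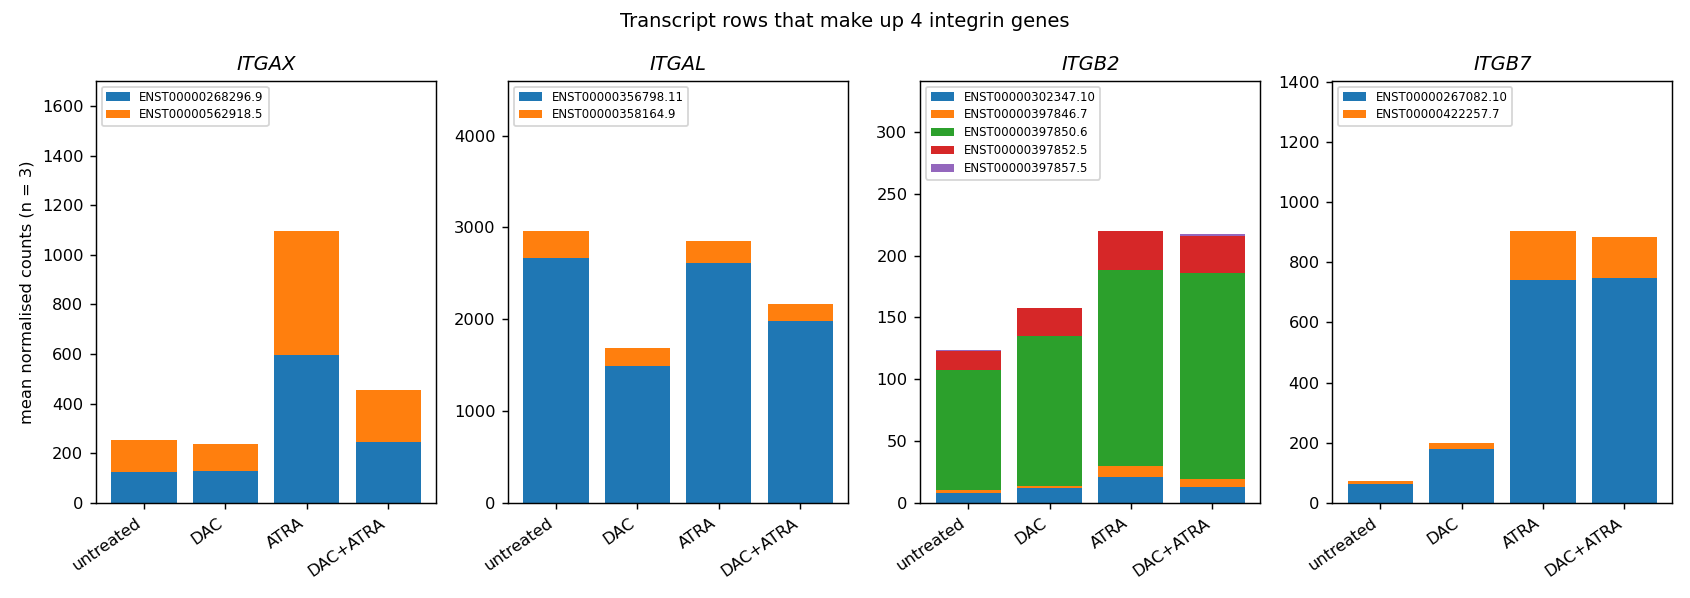
Mean normalised counts (y axis, linear from 0, n = 3) per group, stacked by transcript row, for the 4 members ITGAX, ITGAL, ITGB2 and ITGB7. The rows of ITGAX kept about even parts in all groups, and the smaller ITGB7 row went from 11.5% of counts in untreated cells to 18.3% with ATRA.

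The other genes of the integrin pathway were read from 7 lists of general knowledge, and their calls stand beside 7.97% of all genes called with DAC, 26.0% with ATRA and 28.9% with DAC+ATRA. Of the 16 other integrin subunits, 4 passed the filter, and 1 was called higher and 1 lower with DAC, 1 lower with ATRA, and 1 higher and 2 lower with DAC+ATRA. ITGA9, an α partner of β1, went from 21 ± 6.25 normalised counts in untreated cells to 189 ± 26 with DAC, 7.99 ± 3.45 with ATRA and 95.2 ± 4.65 with DAC+ATRA (mean ± SD, n = 3), and all 3 differences from untreated were called. ITGB5, the β chain of a vitronectin receptor, fell with DAC (log2 fold change -1.07) and DAC+ATRA (-0.83), as ITGA5 did with DAC, and ITGA2B, the platelet fibrinogen receptor chain, fell with DAC+ATRA (-2.69). Subunits of other tissues such as ITGA8, ITGA11, ITGB6 and ITGB8 were listed at 0 throughout.

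Talins, kindlins and other activators and adaptors numbered 19 tested of 22. With DAC limma called 0 of them (2 at an unadjusted p under 0.05, 0 with DESeq2 and 0 with edgeR), with ATRA 6 higher and 2 lower, and with DAC+ATRA 3 higher and 3 lower, where 26.0% of all genes were called with ATRA and 28.9% with DAC+ATRA. The 6 of 19 with DAC+ATRA are near the share of all genes. Their median log2 fold change was 0.02 with DAC, 0.36 with ATRA and 0.13 with DAC+ATRA, beside 0.00, -0.04 and 0.00 over all genes. TLN1, talin, which switches integrins on from inside the cell, rose with ATRA (log2 fold change 1.67) and DAC+ATRA (1.20), and its relative TLN2 fell (-1.71 and -1.04). PXN, the focal adhesion adaptor paxillin, rose by 3.34 and 4.15 from a mean of 4.28 ± 1.73 normalised counts. FERMT1, the kindlin of epithelia, fell from 148 ± 17.3 to 4.21 ± 3.64 with ATRA and 9.37 ± 1.05 with DAC+ATRA.

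Of 6 inhibitors of integrin activation, 5 were tested. None passed limma with DAC (0 called, 1 at an unadjusted p under 0.05, 1 with DESeq2, 0 with edgeR), and 2 were higher and 1 lower with either ATRA or DAC+ATRA, against 26.0% and 28.9% of all genes. DOK1, which competes with talin for β tails, rose by a log2 fold change of 2.22 with ATRA and 1.24 with DAC+ATRA, SIPA1, which turns off Rap1, rose by 1.63 and 1.57, and RASA3, another brake on Rap1, fell by 0.69 and 0.70. So activators and inhibitors each had members that rose and members that fell with ATRA.

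Ligands and counter-receptors numbered 9 tested of 20, with 1 higher and 2 lower with DAC, 2 higher and 2 lower with ATRA, and 1 higher and 2 lower with DAC+ATRA, against 7.97%, 26.0% and 28.9% of all genes. The 3 of 9 with DAC+ATRA are near the share of all genes. ICAM1, the ligand of ITGAL and ITGAM with ITGB2, went from 574 ± 62.9 normalised counts to 225 ± 22.2 with DAC, 4284 ± 491 with ATRA and 1538 ± 115 with DAC+ATRA, and all 3 differences were called (log2 fold changes -1.35, 2.90 and 1.42). SPP1, osteopontin, rose with ATRA (2.63) and not with DAC+ATRA (0.23, adjusted p = 0.668). LAMC1, a laminin chain, fell with ATRA (-1.18) and DAC+ATRA (-0.90), and ICAM5 fell with DAC (-1.13) and DAC+ATRA (-0.80). VCAM1, FN1 and CDH1, ligands of ITGA4, ITGA5 and ITGAE, were listed at 0 in all libraries.

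Kinases and other signalling genes downstream of integrins numbered 15 tested of 20, and 2 were called higher with DAC, 6 higher and 1 lower with ATRA, and 6 higher with DAC+ATRA, where 4.29%, 12.1% and 14.5% of all genes were called higher. Their median log2 fold change was 0.20 with DAC, 0.58 with ATRA and 0.55 with DAC+ATRA. FGR, a Src-family kinase of myeloid cells, rose by log2 values of 2.11, 0.65 and 1.90, FCER1G, an adaptor with a tyrosine motif that β2 integrins signal through, by 1.15, 1.84 and 1.98, and its counterpart TYROBP by 0.91 with ATRA and 0.93 with DAC+ATRA. SRC rose by 1.74 with ATRA and 2.08 with DAC+ATRA from 9.32 ± 4.50 normalised counts in untreated cells.

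All 11 membrane partners of integrins were tested, with 1 lower with DAC, 2 lower with ATRA, and 1 higher and 3 lower with DAC+ATRA. Over all genes 7.97%, 26.0% and 28.9% were called, so 1, 2 and 4 of 11 lie near or below the shares of all genes. The tetraspanin CD82 fell with ATRA (-2.18) and DAC+ATRA (-1.72) and its relative CD81 rose with DAC+ATRA (0.95). SLC3A2, which binds β1 tails and carries amino acid transporters, fell with each treatment (-0.62, -0.83 and -0.78), and CD47 fell with DAC+ATRA (-0.48). Of 4 genes of rolling and homing, 3 were tested, and 1 was called with DAC, 2 with ATRA and 3 with DAC+ATRA, beside the same shares of all genes. SELPLG, the ligand of selectins, fell with ATRA (-1.87) and DAC+ATRA (-2.28), PECAM1 rose with DAC (0.49) and fell with ATRA (-1.51) and DAC+ATRA (-1.08), and CD44 fell with DAC+ATRA (-1.32).

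**Figure D5:**
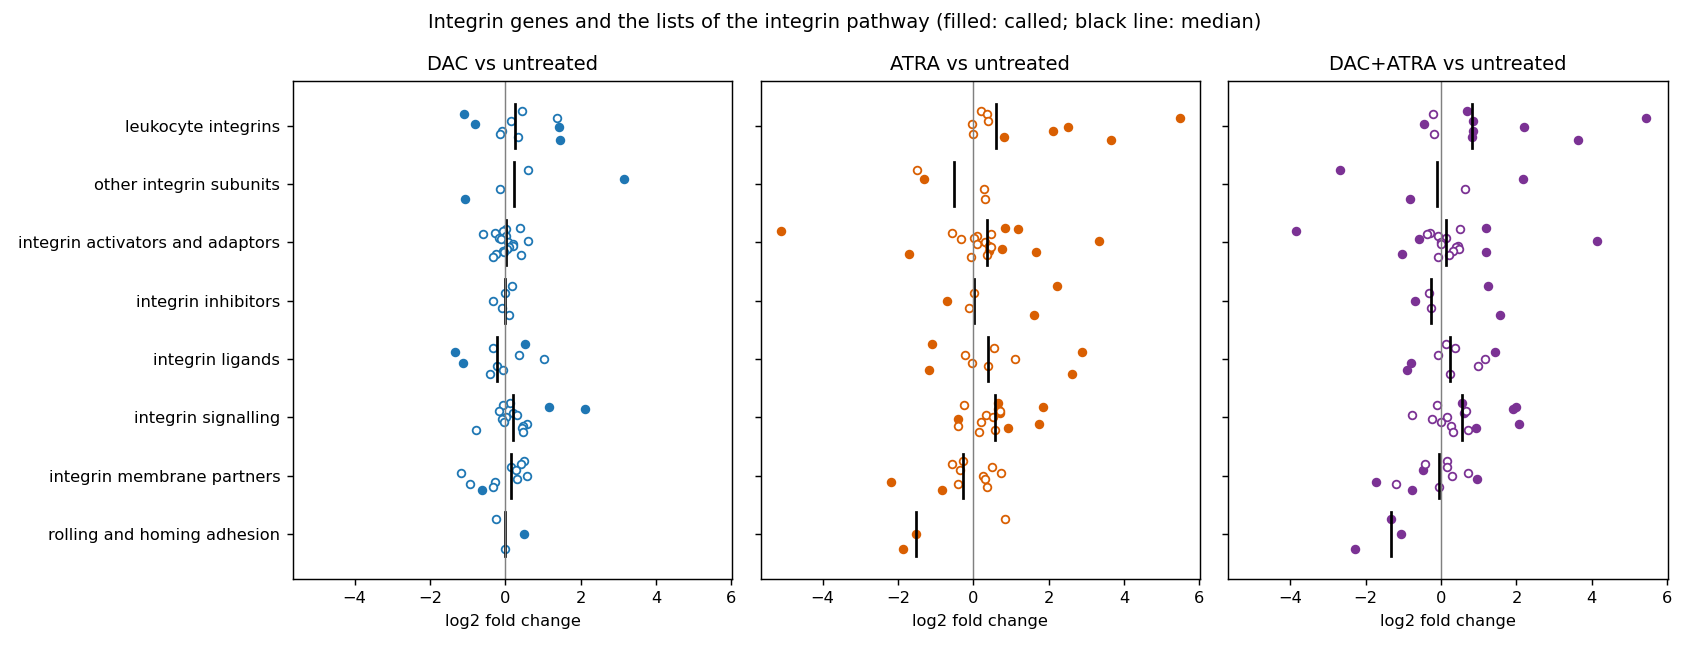
Log2 fold change (x axis) against untreated with DAC, ATRA and DAC+ATRA for tested genes of each list (y axis). Each point is 1 gene, filled where called, and black lines are list medians, which for the leukocyte integrins were 0.25, 0.61 and 0.82.

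The tested genes whose log2 level followed each member most closely over the 12 libraries were picked by Pearson's r, as a description without a test, since the libraries fall into 4 groups and any gene with the same group means scores high. ITGB7 was nearest to SLC25A20 (r = 0.991), CD93 (0.991) and LRRC25 (0.990), and ITGAM to LRRC25 (0.967), SMPD3 (0.957) and PAK1 (0.953), so LRRC25, a leucine-rich membrane protein, stood on both lists. ITGAX was nearest to CEP72 (0.991), LSP1 (0.989) and IER5 (0.986), ITGB2 to DGKQ (0.977), EVA1B (0.976) and NBEAL2 (0.968), and ITGAL to PHLPP1 (0.940), JUND (0.940) and DDIT4 (0.937). ITGA5 was nearest to OCSTAMP (0.989), ARTN (0.974) and GPR157 (0.965), ITGA6 to PSME2 (0.974), ABCD2 (0.973) and DOCK5 (0.972), ITGA4 to LAMP2 (0.951), MPZL2 (0.947) and ENTPD7 (0.944), and ITGAE to ZC3H12D (0.959), GIPC1 (0.957) and POLR2G (0.955). For ITGB1, which varied least, the nearest were NUDT6 (0.885), KIAA1614 (0.844) and ZNF133 (0.841). No other member was among the 3 nearest genes of any member, yet some members followed each other closely. Between members, r ran from -0.641 (ITGAL and ITGA4) to 0.940 (ITGB7 and ITGAM). The next highest were 0.933 (ITGB7 and ITGA6), 0.908 (ITGB7 and ITGB2) and 0.895 (ITGAL and ITGA5).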

How the data were processed

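RNA-seq of MOLM-13 was analysed in 12 libraries of 4 groups. Per the labels and methods, the authors used STAR for alignment to hg38, HTSeq for counting, and DESeq2 for testing of protein-coding transcripts. The deposited matrix of 100502 transcript rows holds a normalised signal, read counts divided by 1 size factor per library. Every value (100%, tolerance 0.001 reads) was a whole multiple of 1 read, so reads were recovered by division. The untreated libraries are the columns headed CTRL. Rows were summed per symbol. Coordinates came from GENCODE 44 (GRCh38), which matched 88.9% of rows, and the release the authors used is not given in the sources used here.

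Groups were compared by limma 3.58.1 (R 4.3.3, lmFit and eBayes with trend) on log2(normalised count + 1), which understates changes of low genes, over all 12 libraries with a coefficient per group. The filter asked protein-coding genes for 10 or more normalised counts in 3 or more libraries, which 10642 met. Benjamini-Hochberg adjustment was made per comparison, and an adjusted p under 0.01 was called. Values after ± are SE for log2 fold changes and SD for levels. The script was tested on simulated data. Alternatives were DESeq2 1.42.0 and edgeR 4.0.16 (quasi-likelihood test, TMM library factors) on recovered reads, TMM and total-count scaling, pseudocounts of 0.1 and 5, no filter or a minimum of 50, only the compared groups, a replicate block, the strongest transcript row and leaving out each library. Single transcript rows were added after seeing the data.

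The members and gene lists were chosen with earlier results of these data known. All members are named, up to 4 genes per list with the largest called change against untreated, and the 3 genes most like each member. Marker lists were CD33, SPI1, MPO, LYZ, CSF1R, CD68, PTPRC and CD14 for myeloid cells, and shorter ones for 6 other cell types. Genes named as listed at 0 were added after their values were seen. Some marker genes are not reported here by name. Replicate numbers were checked for pairing: deviations of same-numbered libraries correlated at -0.263 to 0.114, and those of other-numbered ones at -0.165 to 0.246. With 3 libraries per group, the check found no sign of pairing and cannot exclude it. Counting intervals and floors cover counting error only.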

Additional observations from a re-analysis of the deposited data

Results flagged for a closer look

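For ITGAX and ITGB7 the effect of DAC differed between cells with and without ATRA, by limma's test of the difference itself. The log2 difference was -1.19 for ITGAX, where DAC gave -0.08 without ATRA and -1.27 with it, and -1.48 for ITGB7, where DAC gave 1.45 without ATRA and -0.03 with it.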

How the results depend on the processing

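Of 60 member tests, 26 were called and 17 of these were called in every alternative that gave a value, 26 of the 34 others were never called, and 0 called values changed sign. When each fit held only the groups compared, 371 genes in place of 848 were called with DAC and 4 members in place of 2 between DAC+ATRA and ATRA, and DESeq2 called 338 genes in place of 170 for the interaction; the cause was not tested. Leaving out 1 library gave 3 to 4 members and 509 to 1385 genes with DAC, 5 to 7 and 2130 to 3271 with ATRA, 6 to 8 and 2362 to 3641 with DAC+ATRA, 5 to 6 and 1461 to 2044 between DAC+ATRA and DAC, 2 to 5 and 819 to 1778 between DAC+ATRA and ATRA, and 2 to 3 and 106 to 262 for the interaction. Counts moved over 1.5 times without DAC replicate 3 (1385 with DAC, 262 for the interaction, 5 members between DAC+ATRA and ATRA), untreated replicate 1 (540 with DAC) or 2 (509 with DAC, 106 for the interaction), ATRA replicate 2 (819 between DAC+ATRA and ATRA) or DAC+ATRA replicate 2 (819 there, 112 for the interaction).

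The replicate block changed no member call: 4 members with DAC, 5 with ATRA, 8 with DAC+ATRA, 5 between DAC+ATRA and DAC, 2 between DAC+ATRA and ATRA and 2 for the interaction, with 742, 2572, 2832, 1834, 1141 and 140 genes. Of 12 libraries, 1 correlated best with its own number, which is no sign of pairing and cannot exclude it. This comes from the data and not the design. ITGAM in untreated cells and ITGA6 without ATRA rest on few reads, which limits their folds.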
